A study of Rattus norvegicus with 6 samples.

Results

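The insulin-like growth factors, their receptors and their binding proteins were examined in rat mammary tumors as a family of 10 genes chosen by name. The family holds the ligands Igf1 and Igf2, the receptors Igf1r and Igf2r, and the binding proteins Igfbp2, Igfbp3, Igfbp4, Igfbp5, Igfbp6 and Igfbp7. All 10 were among the 30562 rows of the count table, and 10 of 10 had enough counts to be tested. RNA was sequenced in bulk from 6 mammary tumors of F344 rats, an inbred strain widely used in studies of aging, with 1 library per tumor. Every rat carried a subcutaneous pellet of 50 mg of medroxyprogesterone acetate (MPA, a synthetic progestin) made to release over 90 days, and had received 65 mg per kg of 7,12-dimethylbenz[a]anthracene (DMBA, a carcinogen) by gavage. The older group (tumors 102, 107 and 116) came from rats that were 21 to 23 months old at DMBA treatment, and the younger group (tumors 157, 158 and 167) from rats that were 4 months old. The older rats had been obtained at 19 to 21 months and the younger rats, as virgins, at 6 to 8 weeks, from different suppliers, so age and source cannot be told apart. Tumors were whole tissue from a carcinogen model without a defined driver, and the labels give no histological type for any tumor. Both groups were treated alike, so the single comparison asks how tumors of older hosts differed from tumors of younger hosts.

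IGF-I and IGF-II are small secreted proteins that bind the receptor tyrosine kinase IGF1R, which passes the signal through insulin receptor substrates to the PI3K and MAPK pathways and promotes growth and survival. The mannose-6-phosphate receptor encoded by Igf2r takes up IGF-II for degradation and does not pass on the growth signal. Binding proteins hold the ligands in serum and tissue, where they extend ligand lifetime or keep ligand from the receptor, and proteases such as pappalysin release it again. In the mammary gland the axis acts downstream of growth hormone in ductal growth, and IGFBP5 is known for its rise during involution.

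Older tumors had more Igf1, Igf2 and Igf1r and less Igfbp2 than each younger tumor, whereas the other 6 genes overlapped between the age groups. With edgeR's quasi-likelihood test and Benjamini-Hochberg adjustment over the 13139 genes tested, 0 of the 10 family genes passed an adjusted p of 0.05, and 0% of all genes did. At an unadjusted p under 0.05 the same test listed 5 family genes. Of these, 3 were higher in older tumors (Igf1, Igf2 and Igf1r), against a background of 5.3% of all genes in that direction, and 2 were lower (Igfbp2 and Igfbp3), against 3.29%. DESeq2's Wald test passed 3 family genes at an adjusted p under 0.05, all higher in older tumors (Igf1, Igf2 and Igf1r). Its background was 1.67% of genes higher and 0.817% lower in older tumors. The voom method of limma passed 0 family genes and listed 5 at an unadjusted p under 0.05, against 6.76% of all genes in either direction. Each older tumor exceeded each younger tumor for 3 family genes, against 6.51% of all genes tested, and each fell below for 1, against 5.58%. The log2 fold change, taken throughout as older minus younger, was above 0 for 5 family genes and below 0 for 5, with a median of -0.09 over the family and of -0.0038 over all genes tested. For 1 gene taken alone, the smallest two-sided p that exact permutation of these 6 tumors allows is 0.1.

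**Figure D1:**
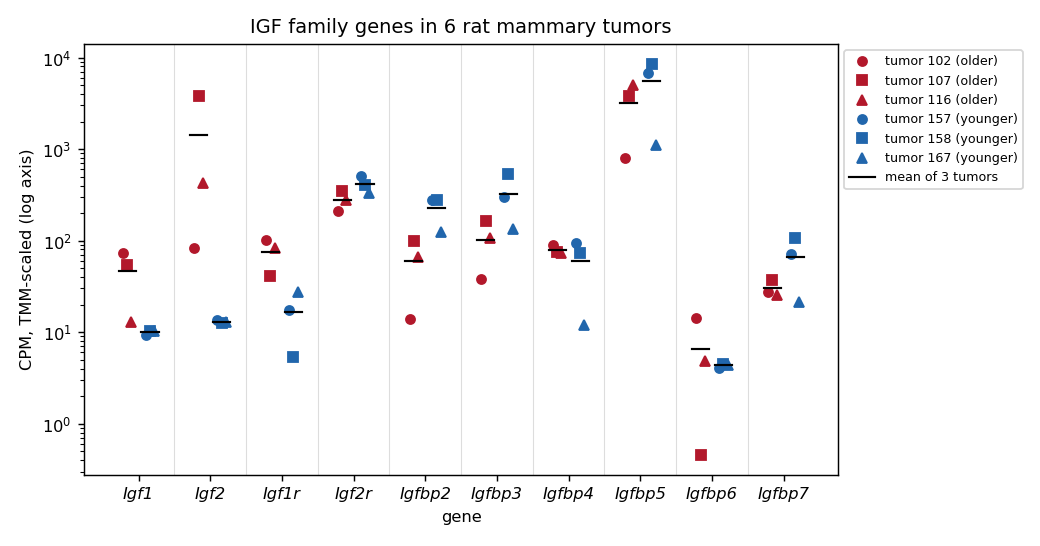
Level of each family gene in each tumor, as CPM (counts scaled to a common library total with TMM factors), on a log axis. Red symbols are older tumors, blue symbols younger tumors, and black lines the mean of 3. Igf2 reached 3814 CPM in tumor 107, and the 3 younger tumors sat between 12.6 and 13.6.

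Libraries held between 3508571 and 6525830 counts, and the 10 most abundant genes accounted for 9.15% to 22.2% of the counts of named genes. Levels are given as CPM after scaling by TMM factors (0.859 to 1.13), so that the floor of 3 counts corresponded to between 0.528 and 1.03 CPM. This floor covers counting error only. Luminal epithelial markers were abundant in all 6 tumors, with summed levels of 1589 to 1813 CPM in older and of 2054 to 2258 CPM in younger tumors (9 of 10 markers in the table). Milk protein genes varied most among the marker lists, from 5634 CPM in tumor 167 to 174259 CPM in tumor 158. Fibroblast markers (10 of 10 in the table) were low in tumors 107 (138 CPM) and 167 (125 CPM) and lay between 628 and 1346 CPM in the other 4 tumors. Proliferation genes (11 of 11) were lowest in tumor 102 (182 CPM), against 811 to 1339 CPM elsewhere. In bulk tissue, fewer cells of a type and less RNA per cell cannot be told apart, and this holds for every level below.

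Igf2, the fetal growth factor of the pair, was the gene of the family that differed most between age groups. It measured 82.3, 3814 and 423 CPM in tumors 102, 107 and 116, from 240, 16855 and 2123 counts. The younger tumors 157, 158 and 167 measured 13.6, 12.6 and 12.8 CPM, from 77, 70 and 52 counts. Every older tumor exceeded every younger one, and the older tumors differed far more among themselves (1440 ± 2063 CPM, SD, n = 3) than the younger tumors did (13.0 ± 0.504 CPM, SD, n = 3). The highest tumor exceeded the lowest 303-fold. Its log2 fold change was 6.79 with a standard error of 1.42, and edgeR gave an adjusted p of 0.268 where DESeq2 gave an adjusted p of 5.68e-09. Tumor 107 decided much of its size, since the log2 fold change was 4.28 without that tumor and 6.77 to 7.34 without any other. The DESeq2 call held with each tumor left out in turn, with adjusted p between 2.39e-18 and 0.00481.

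The sum of T cell markers was also highest in tumor 107. Their summed level was 143 CPM there, 31.7 CPM in tumor 116 and 23.3 CPM in tumor 102, the same order as Igf2, and 10.99 to 17.6 CPM in younger tumors (7 of 8 markers in the table, 3 tested, 2 of these higher at an unadjusted p under 0.05). The 2 were Cd8a and Cd3e, and 5.3% of all genes were higher at that p in edgeR. Cd3e had 10, 19 and 26 counts in older and 8, 8 and 7 counts in younger tumors. It passed the filter on low counts through the older tumors alone, so its call is no support for a difference. Cd8a (74.2 CPM) and Lck (56.1 CPM) gave most of the sum in tumor 107. Cd2 was also highest in tumor 107 and in the order of Igf2, at 1.03, 5.43 and 3.59 CPM in tumors 102, 107 and 116. The CD3 genes Cd3d, Cd3e and Cd3g were instead highest in tumor 116 (Cd3e at 5.18 CPM, against 4.30 CPM in tumor 107), and Cd5 was highest in tumor 167. Without Cd8a and Lck the list summed to 6.51, 12.2 and 14.8 CPM in tumors 102, 107 and 116 and to 2.88 to 5.65 CPM in younger tumors, which is no longer the order of Igf2. Of the T cell list, Cd4 was not analysed here. The part of T cell content in the Igf2 levels was not tested. Reads were counted per gene with no strand setting given in the sources used here, and in the RefSeq annotation Igf2 overlaps Mir483, which had 1 count in all tumors together, and the gene model LOC102548568. H19, the maternally expressed neighbor of the paternally expressed Igf2, measured 1.03, 186 and 11.6 CPM in older tumors and 34.3, 13.1 and 0.737 CPM in younger tumors. H19 was thus highest in tumor 107 as well, but its age groups overlapped. Its log2 fold change was 2.03 with a standard error of 1.58 and turned to -1.30 without tumor 107.

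Igf1, the ligand induced by growth hormone, measured 72.7, 54.3 and 13.0 CPM in tumors 102, 107 and 116. The younger tumors measured 9.33, 10.3 and 10.3 CPM. Tumor 116 thus lay close to the younger tumors, and tumors 102 and 107 well above them. The group means were 46.6 ± 30.6 CPM in older and 9.97 ± 0.558 CPM in younger tumors (SD, n = 3). Igf1 had a log2 fold change of 2.22 with a standard error of 0.58, with an adjusted p of 0.33 in edgeR and of 0.0157 in DESeq2. It stayed between 1.74 (without tumor 102) and 2.66 (without tumor 116). The DESeq2 call was lost on leaving out any tumor but 116, with adjusted p between 0.0558 and 0.177.

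Adipocyte and macrophage markers were read beside Igf1. The adipocyte list summed to 762, 470 and 288 CPM in tumors 102, 107 and 116, the same order as Igf1, and to 91.9 to 244 CPM in younger tumors. Lpl gave most of these sums. Without Lpl they were 245, 64.0 and 28.9 CPM in older and 33.1, 31.9 and 19.9 CPM in younger tumors, so that tumor 116 lay below tumors 157 and 158. All 10 adipocyte markers were in the table, and of 7 tested 2 were higher at an unadjusted p under 0.05 in edgeR. Of 10 macrophage markers tested, 5 were higher at that p, and so were 5.3% of all genes. Macrophage markers summed to 443 to 557 CPM in older and 180 to 557 CPM in younger tumors. The overlap came from Cd14 in tumor 158 (419 CPM), and without Cd14 the sums were 249 to 427 CPM in older and 120 to 181 CPM in younger tumors. Their order within the older tumors (tumor 107 highest) was not that of Igf1. None of the markers of either list was at 0 in all tumors. The part of these cell types in the Igf1 levels was not tested.

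Within each tumor, the ratio of Igf1 to Igf2 counts is free of the scaling between libraries. Its log2 value was -0.53, -0.29 and -0.30 in the younger tumors, so both ligands had similar counts in all 3. It was -0.18 in tumor 102, but -6.13 in tumor 107 and -5.02 in tumor 116. The age groups overlapped for this ratio because of tumor 102. Its mean was -3.78 ± 3.16 in older and -0.38 ± 0.14 in younger tumors (SD, n = 3), a difference of -3.40 that ranged from -5.20 without tumor 102 to -2.22 without tumor 107. Transcript lengths were not used, so the ratio compares tumors and not the amounts of the ligands.

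The windows upstream of Igf2 are shown together with that of Igfals, which encodes the acid-labile subunit that holds circulating IGF in its ternary complex, because both genes had their highest level in tumor 107 and their levels followed each other over the tumors (Pearson's r = 0.99 of log2 CPM, a description over 6 tumors of 2 age groups). RefSeq lists a pair of start sites for Igf2. Each window holds the 250 bases before a start site in assembly GRCr8, read 5′ to 3′ on the strand of the gene. Capitals mark each match to 5 motifs searched on both strands. They were GGGCGG, known as the GC box, the promoter element CCAAT, the letters TATAAA of the TATA motif, TTCNNNGAA of the STAT family and TGANTCA of the factor AP-1. The element CCAAT reads as ATTGG when it lies on the other strand.
Igf2, chr1:207250476-207250725, minus strand: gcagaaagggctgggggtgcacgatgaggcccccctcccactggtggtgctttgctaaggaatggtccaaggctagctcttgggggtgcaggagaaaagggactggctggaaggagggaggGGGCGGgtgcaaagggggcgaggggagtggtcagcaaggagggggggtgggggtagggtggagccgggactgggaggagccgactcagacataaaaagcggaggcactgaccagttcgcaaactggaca
Igf2, chr1:207253981-207254230, minus strand: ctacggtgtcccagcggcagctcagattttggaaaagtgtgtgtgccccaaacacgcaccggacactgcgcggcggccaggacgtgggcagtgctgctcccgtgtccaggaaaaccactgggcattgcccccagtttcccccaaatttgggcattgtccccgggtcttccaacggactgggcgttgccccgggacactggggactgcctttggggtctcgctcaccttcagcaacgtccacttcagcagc
Igfals, chr10:14403600-14403849, plus strand: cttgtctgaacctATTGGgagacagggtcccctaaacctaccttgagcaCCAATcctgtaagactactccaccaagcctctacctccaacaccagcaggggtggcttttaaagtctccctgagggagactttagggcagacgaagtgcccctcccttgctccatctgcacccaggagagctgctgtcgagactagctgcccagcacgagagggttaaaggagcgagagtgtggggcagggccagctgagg
The first Igf2 window held GGGCGG at 129 bases before the start, and the second held no match. The Igfals window held CCAAT on the plus strand at 201 bases and on the minus strand at 237 bases before the start. Of all 33469 windows of this length, 30.47% held GGGCGG, 34.02% CCAAT, 12.93% TATAAA, 7.667% TTCNNNGAA and 6.34% TGANTCA, so the matches are common ones. No match was shared between the Igf2 and Igfals windows.

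Igf1r, the signaling receptor, was higher in every older than in every younger tumor. It measured 100.4, 41.4 and 82.5 CPM in tumors 102, 107 and 116. The younger tumors measured 17.4, 5.4 and 27.5 CPM. The nearest pair across the age groups was tumor 107 and tumor 167. For Igf1r the log2 fold change was 2.16 with a standard error of 0.59, with an adjusted p of 0.342 in edgeR and of 0.0208 in DESeq2. Leaving out 1 tumor moved it between 1.74 (without tumor 158) and 2.70 (without tumor 167). The DESeq2 call was lost without tumor 102 (adjusted p = 0.156), tumor 116 (adjusted p = 0.0891) or tumor 157 (adjusted p = 0.127). Igf1r overlaps Pgpep1l, which had 13 counts in all tumors together, and the gene model LOC134483685 in the RefSeq annotation.

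Igf2r, the clearance receptor, lay lower in most older tumors. It measured 213, 351 and 280.1 CPM in tumors 102, 107 and 116 and 505, 409 and 332 CPM in tumors 157, 158 and 167. Tumor 107 exceeded tumor 167, so the groups overlapped. Igf2r had a log2 fold change of -0.56 with a standard error of 0.30 and an adjusted p of 0.7 in edgeR. In the RefSeq annotation it overlaps LOC120100462, which had 128 counts in all tumors together, and the gene model LOC134482693. The log2 ratio of Igf1r to Igf2r counts separated the groups, with -1.08, -3.08 and -1.76 in older and -4.85, -6.22 and -3.59 in younger tumors. Its mean was -1.97 ± 1.02 in older and -4.89 ± 1.32 in younger tumors (SD, n = 3). The difference of 2.91 ranged from 2.24 without tumor 158 to 3.56 without tumor 167.

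**Figure D2:**
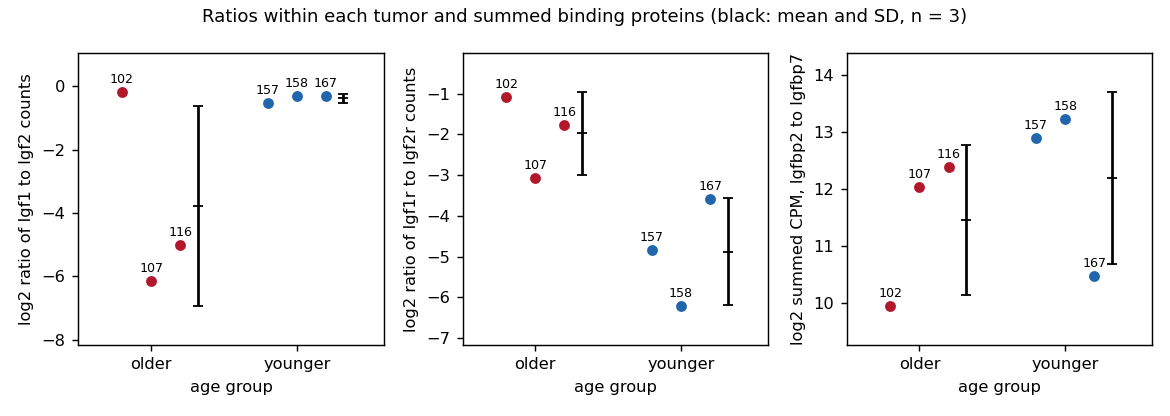
Log2 ratios of Igf1 to Igf2 and of Igf1r to Igf2r counts within each tumor, and the log2 of the summed CPM of the 6 binding protein genes. Points are tumors, and black marks are the mean and SD of 3; the receptor ratio of every older tumor (-3.08 to -1.08) exceeded that of every younger tumor (-6.22 to -3.59).

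Igfbp2 was the binding protein gene whose age groups did not overlap. It measured 14.1, 98.2 and 66.6 CPM in tumors 102, 107 and 116. The younger tumors measured 274, 278 and 125 CPM. Tumor 167 was the lowest of the younger tumors and still exceeded tumor 107, the highest of the older ones. For Igfbp2 the log2 fold change was -1.92 with a standard error of 0.65, with an adjusted p of 0.438 in edgeR and of 0.0845 in DESeq2. Left out in turn, the tumors moved it between -2.47 (without tumor 107) and -1.46 (without tumor 102). DESeq2 passed Igfbp2 on leaving out tumor 107 (adjusted p = 0.0226) and on leaving out no other tumor.

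Igfbp3, the main carrier of IGF in serum, followed the same order in the older tumors, with 37.7, 163 and 107 CPM in tumors 102, 107 and 116. The younger tumors measured 297, 533 and 135 CPM. Tumor 167 lay below tumor 107, so the groups overlapped. Igfbp3 had a log2 fold change of -1.64 with a standard error of 0.63 and an adjusted p of 0.517 in edgeR. Leaving out a tumor moved it from -2.15 (without tumor 107) to -1.06 (without tumor 158), in the latter case by over 1.5 times. Igfbp2 and Igfbp3 had a Pearson's r of 0.96 over the 6 tumors.

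The windows upstream of Igfbp2 and Igfbp3 are shown because the levels of the genes followed each other. Igfbp2 lies on chromosome 9 beside Igfbp5, and Igfbp3 on chromosome 14 beside Igfbp1. Capitals mark the same 5 motifs as above.
Igfbp2, chr9:81864561-81864810, plus strand: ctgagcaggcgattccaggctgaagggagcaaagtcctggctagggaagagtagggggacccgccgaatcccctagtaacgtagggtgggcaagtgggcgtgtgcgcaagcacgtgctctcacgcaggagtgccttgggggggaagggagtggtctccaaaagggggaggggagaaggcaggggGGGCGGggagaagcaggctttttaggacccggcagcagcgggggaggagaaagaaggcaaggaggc
Igfbp3, chr14:86277945-86278194, minus strand: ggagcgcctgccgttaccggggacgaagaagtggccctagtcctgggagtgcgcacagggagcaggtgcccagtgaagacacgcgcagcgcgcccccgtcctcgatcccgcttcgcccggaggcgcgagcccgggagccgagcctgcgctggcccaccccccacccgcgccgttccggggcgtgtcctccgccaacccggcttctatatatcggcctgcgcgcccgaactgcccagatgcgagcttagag
The Igfbp2 window held GGGCGG at 66 bases before the start. The Igfbp3 window held none of the 5 motifs, so these letters were not shared. Igfbp2 and Igfbp5 lie next to each other, and their r over the tumors was 0.75.

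Luminal markers and proliferation genes were read beside Igfbp2 and Igfbp3, and neither list followed their order over the tumors. Of 9 luminal markers tested, 3 were lower in every older than in every younger tumor, against 5.58% of all genes. In edgeR, 0 of the 9 had an unadjusted p under 0.05. The log2 fold changes of all 11 proliferation genes were below 0, with a median of -0.53 and 0 at an unadjusted p under 0.05. Tumor 102, lowest for both binding proteins, was also the lowest for proliferation genes, but tumor 158, highest for both, summed to 811 CPM of proliferation genes, below the older tumors 107 (836 CPM) and 116 (1094 CPM). Among older tumors, luminal markers were lowest in tumor 107, where both binding proteins were highest. Basal and myoepithelial markers summed to 776, 3652 and 1079 CPM in tumors 102, 107 and 116 and to 2613 to 3647 CPM in younger tumors (9 of 10 in the table). Within the older tumors this was the order of both binding proteins, and tumor 167 was the lowest younger tumor for each. Over all tumors the basal sum was highest in tumor 107, and both binding proteins in tumor 158. All 9 basal markers had log2 fold changes below 0, with a median of -0.71 and 0 at an unadjusted p under 0.05 in edgeR. The part of any of these in the binding protein levels was not tested.

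Igfbp5, a binding protein expressed by mammary epithelium, gave most of the counts of the 6 binding protein genes, without regard to transcript length, from 78.8% in tumor 167 to 94.8% in tumor 116. It measured 799, 3803 and 5068 CPM in older tumors. The younger tumors measured 6799, 8598 and 1111 CPM. Tumor 167 lay with tumor 102 far below the other 4. The log2 fold change was -0.77 with a standard error of 0.87 and an adjusted p of 0.903 in edgeR, and it ranged from -1.26 (without tumor 116) to -0.28 (without tumor 158).

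Igfbp7, also known as angiomodulin and found around vessels, measured 27.8, 37.3 and 25.5 CPM in older and 70.6, 106 and 21.4 CPM in younger tumors. Tumor 167 was lower than each older tumor, so the groups overlapped. The log2 fold change was -1.13 with a standard error of 0.53 and an adjusted p of 0.632 in edgeR, and it was -0.60 without tumor 158 and -1.55 without tumor 167. DESeq2 passed Igfbp7 without tumor 167 (adjusted p = 0.0103). The endothelial list (9 of 10 markers in the table) summed to 507, 459 and 214 CPM in older and 395, 483 and 134 CPM in younger tumors. Like Igfbp7 it was lowest in tumor 167, but it was highest in tumor 102. Pericyte markers summed to 383, 509 and 180 CPM in older and 532, 383 and 297 CPM in younger tumors. The part of either list in the Igfbp7 levels was not tested. Igfbp7 overlaps Polr2b in the RefSeq annotation, and the split of reads between them is uncertain.

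Igfbp4, the substrate of pappalysin, was nearly level in 5 tumors. It measured 88.8, 74.9 and 72.4 CPM in older tumors and 94.7, 73.0 and 12.04 CPM in younger tumors. The low value of tumor 167 gave a log2 fold change of 0.39 with a standard error of 0.62 (edgeR, adjusted p = 0.937), which turned to -0.10 without that tumor. Summed fibroblast markers were 125 CPM in tumor 167 and 138 CPM in tumor 107, and their part in the Igfbp4 levels was not tested. Igfbp4 overlaps the gene model LOC134480869 in the RefSeq annotation.

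Igfbp6, which prefers IGF-II over IGF-I, had few counts. It measured 14.4, 0.453 and 4.79 CPM in older tumors, from 42, 2 and 24 counts. The younger tumors were alike, at 4.05, 4.50 and 4.42 CPM. Tumor 107 had 2 counts, under the floor of 3. The log2 fold change of 0.56 had a standard error of 0.91 (edgeR, adjusted p = 0.937), turned to -0.70 without tumor 102 and was 1.12 without tumor 107. No direction can be read for Igfbp4 or Igfbp6.

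Summed over the 6 genes, binding protein levels were 981, 4177 and 5344 CPM in older tumors and 7539, 9592 and 1409 CPM in younger tumors. The log2 difference of -0.74 lay within the spread of either group (SD of 1.32 in older and 1.51 in younger tumors) and ranged from -1.61 without tumor 167 to 0.011 without tumor 102. Without Igfbp5, the sum was 183, 374 and 277 CPM in older tumors and 741, 994 and 298 CPM in younger tumors, so that the groups overlapped at tumors 107 and 167.

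**Figure D3:**
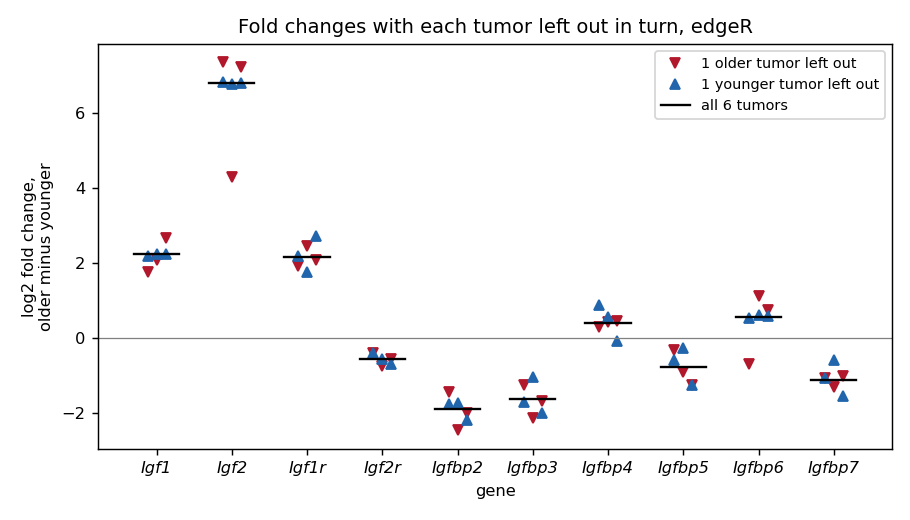
Log2 fold change of each family gene (older minus younger, edgeR) with all 6 tumors (black lines) and with each tumor left out in turn (red, an older tumor; blue, a younger tumor). Igf2 dropped to 4.28 without tumor 107, and only Igfbp4 and Igfbp6 crossed 0.

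The partners of the ligands and receptors were read from a list of 16 further genes of the axis, of which 15 were in the table and 11 were tested. With edgeR, 0 passed an adjusted p of 0.05, and at an unadjusted p under 0.05 there were 2 higher (Igfals and Irs2) and 1 lower (Grb14). The shares of all genes tested were 5.3% higher and 3.29% lower. Igfals, Irs2 and Grb14 passed DESeq2's threshold, against 1.67% of all genes higher and 0.817% lower. Their age groups did not overlap, against 6.51% of all genes above and 5.58% below. Igfals passed the filter on low counts through the older tumors alone, so its place in these counts is no support for a difference. The median log2 fold change of the list was 0.74, against -0.0038 over all genes tested.

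Igfals measured 7.88, 208 and 21.5 CPM in older tumors and 0.880, 1.44 and 0.491 CPM in younger tumors. Younger tumors were thus at or near the floor, with 5, 8 and 2 counts, so Igfals passed the filter on low counts through the older tumors alone and its calls are no support for a difference. Its log2 fold change reached 6.32 with a standard error of 1.36, and it was 3.91 without tumor 107. The adjusted p was 0.271 in edgeR and 6.22e-07 in DESeq2. DESeq2 passed Igfals with each tumor left out in turn (adjusted p of up to 0.00406), and these calls have the same limit.

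Irs2, an adaptor of the insulin and IGF1 receptors, measured 447, 127 and 127 CPM in older and 76.9, 49.0 and 58.5 CPM in younger tumors. Its log2 fold change was 1.92 with a standard error of 0.54 (adjusted p of 0.342 in edgeR and of 0.0268 in DESeq2), and it was 1.04 without tumor 102. The related adaptor Irs1 overlapped between groups, with 116, 56.4 and 25.1 CPM in older and 31.9, 35.8 and 16.5 CPM in younger tumors (log2 fold change of 1.22, standard error of 0.56, or 0.52 without tumor 102). Grb14, an inhibitor of insulin receptor signaling, measured 3.77, 9.28 and 21.3 CPM in older and 47.2, 36.7 and 62.4 CPM in younger tumors. Its log2 fold change was -2.06 with a standard error of 0.57 (adjusted p of 0.342 in edgeR and of 0.0243 in DESeq2). Insr, the insulin receptor, overlapped between groups (log2 fold change of 0.36, standard error of 0.39). Igfbp1 had 0 counts in all 6 tumors, which allows up to 0.528 to 1.03 CPM by tumor. Irs4 was not analysed here.

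**Figure D4:**
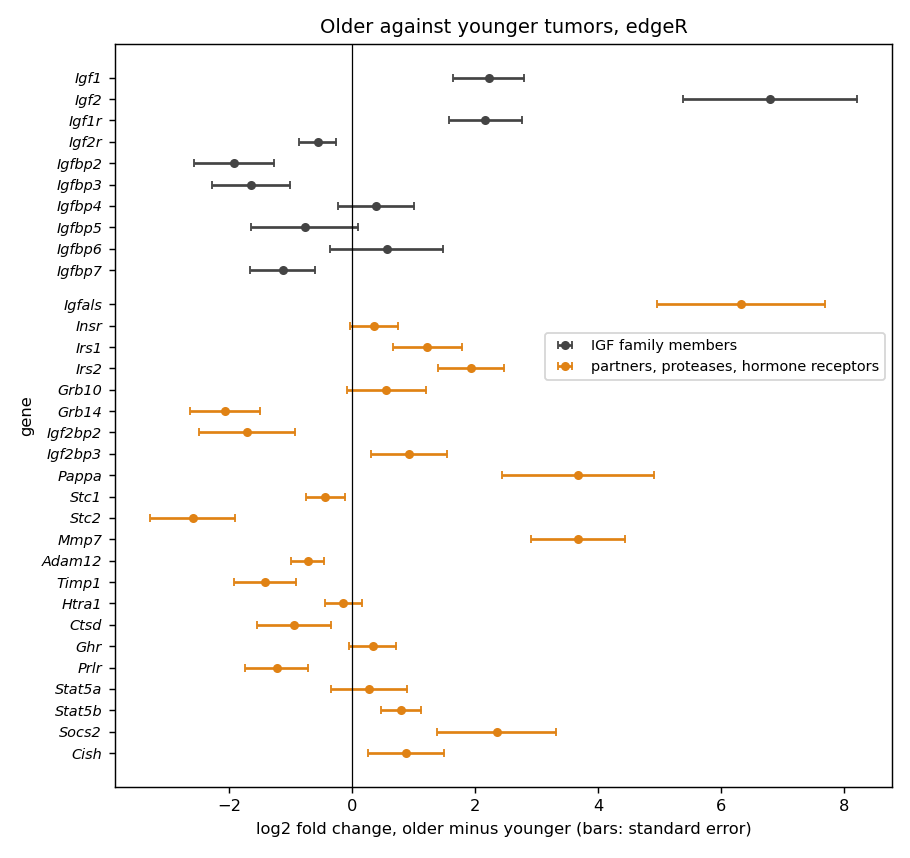
Log2 fold changes between older and younger tumors with standard errors from edgeR, for the 10 family genes (grey) and for tested partners, proteases and hormone receptors (orange). Igf2 (6.79) and Igfals (6.32) lay farthest to the right, and none of these genes passed an adjusted p of 0.05 in edgeR.

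Proteases of the binding proteins and their inhibitors formed a list of 11 genes, of which 9 were tested. At an unadjusted p under 0.05 in edgeR, 2 were higher (Pappa and Mmp7) and 3 lower (Stc2, Adam12 and Timp1), and 0 passed the adjusted threshold. The background was 5.3% of all genes higher and 3.29% lower. DESeq2 passed 2 higher (Pappa and Mmp7) and 1 lower (Stc2), against 1.67% and 0.817% of all genes. Pappa encodes pappalysin-1, which cleaves IGFBP4, and Stc2 encodes stanniocalcin-2, an inhibitor of pappalysins.

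Pappa measured 57.6, 430.2 and 40.7 CPM in older and 33.8, 3.06 and 4.18 CPM in younger tumors. Older tumors exceeded younger ones throughout, narrowly at tumors 116 and 157. The log2 fold change was 3.67 with a standard error of 1.24 (adjusted p of 0.433 in edgeR and of 0.0179 in DESeq2), and it was 1.84 without tumor 107 and 5.60 without tumor 157. Stc2 measured 5.14, 2.49 and 13.4 CPM in older and 66.4, 18.4 and 44.0 CPM in younger tumors. Its log2 fold change was -2.59 with a standard error of 0.69 (adjusted p of 0.341 in edgeR and of 0.0111 in DESeq2). Stc1, the related inhibitor, was lower in each older tumor by a small amount (log2 fold change of -0.44, standard error of 0.32). Mmp7, a matrix metalloprotease, had 17, 17 and 18 counts in older and 2, 3 and 0 counts in younger tumors. Its adjusted p was 0.267 in edgeR and 0.00711 in DESeq2. Mmp7 also passed the filter through the older tumors alone, so its calls are no support for a difference. Adam12, which cleaves IGFBP3 and IGFBP5, had a log2 fold change of -0.72 with a standard error of 0.27. Timp1, an inhibitor of metalloproteases, had one of -1.42 with a standard error of 0.50. Pappa2 had 1 count in all tumors together.

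Upstream of Igf1, 10 genes of growth hormone and STAT5 signaling were tested. With edgeR, 2 were higher (Stat5b and Socs2, against 5.3% of all genes) and 1 lower (Prlr, against 3.29%) at an unadjusted p under 0.05. In DESeq2, which gave no adjusted p for Socs2, 0 passed. Stat5b, a transcription factor activated by growth hormone, was higher by 0.79 on the log2 scale (SE 0.33), and Prlr, the prolactin receptor, had a log2 fold change of -1.23 (SE 0.51), which was -0.65 without tumor 167. Ghr, the growth hormone receptor, overlapped between groups, at 39.4 ± 17.2 CPM in older and 31.2 ± 8.30 CPM in younger tumors (SD, n = 3). Socs2, a target of STAT5, measured 7.54, 73.3 and 5.78 CPM in older and 7.92, 4.14 and 4.91 CPM in younger tumors. Tumor 107 alone stood out for Socs2, and its log2 fold change of 2.35 became 0.22 without that tumor.

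Downstream of Igf1r, 27 genes of the PI3K, AKT and mTOR pathway were tested. At an unadjusted p under 0.05 in edgeR, 3 were higher and 2 lower, against 5.3% and 3.29% of all genes. In DESeq2, 0 passed. The higher genes included Pik3cd, a catalytic subunit typical of leukocytes (log2 fold change of 1.55), and the phosphatase gene Inpp4b (2.00, or 0.94 without tumor 102). The lower genes were the regulatory subunit gene Pik3r3 (log2 fold change of -1.25) and Ddit4 (-1.26), an inhibitor of mTORC1. The core genes Pik3ca, Akt1, Akt2 and Mtor had log2 fold changes between -0.13 and 0.14. Of 8 RAS adaptor genes tested, 0 had an unadjusted p under 0.05 in edgeR.

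Within the family, 45 pairs of genes were compared by Pearson's r of log2 CPM over the 6 tumors. These values are a description: the tumors belong to 2 age groups and the genes share libraries and depth, so a difference between the groups also enters r. Of the 45 pairs, 5 had r over 0.8. They linked Igfbp2 with Igfbp3 (0.96), Igf2r with Igfbp2 (0.95) and Igfbp3 (0.90), and Igfbp3 with Igfbp5 (0.82) and Igfbp7 (0.82). In 3 pairs r was under -0.8, and each held Igf1r, against Igfbp3 (-0.93), Igfbp2 (-0.86) and Igfbp7 (-0.83). The ligands Igf1 and Igf2 had r = 0.64. Igfbp4 and Igfbp6 had no pair beyond 0.6 in either direction.

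**Figure D5:**
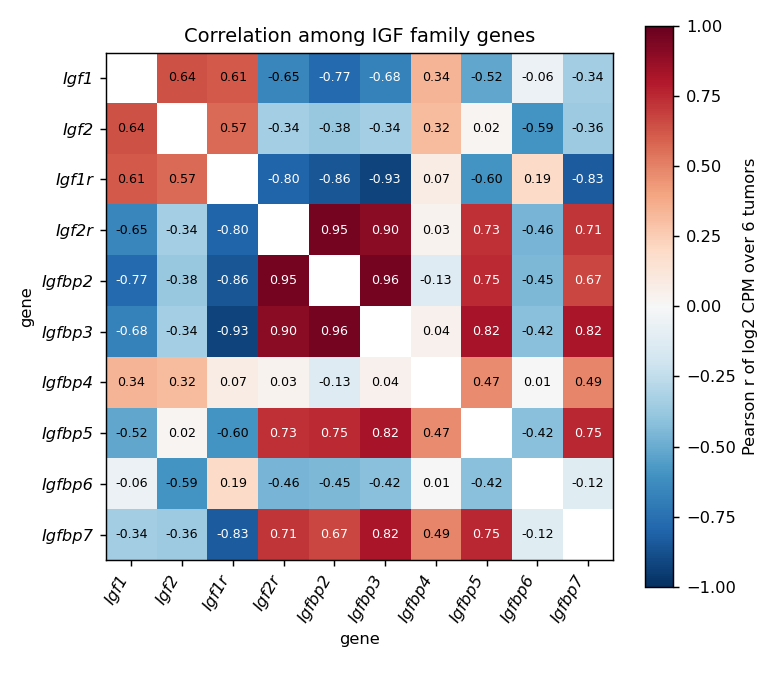
Pearson's r of log2 CPM over 6 tumors for each pair of family genes, from blue (-1) to red (1). Igf2r, Igfbp2, Igfbp3, Igfbp5 and Igfbp7 formed a red block, and Igf1r was negative against each of them (-0.60 to -0.93).

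For each family gene, the 3 genes with the most similar pattern among 13138 others were named by the same r. Igf2 was most like Dock10 (0.99), Gpr65 (0.99) and Igfals (0.99). Igf1r was most like Bcl2 (0.996), an inhibitor of apoptosis, which measured 80.6, 41.4 and 67.4 CPM in older and 25.7, 11.7 and 29.0 CPM in younger tumors. Igfbp2 was most like Cdh3 (0.99), the gene of P-cadherin, which measured 2.74, 23.8 and 15.2 CPM in older and 73.4, 54.2 and 24.3 CPM in younger tumors. The other genes most like Igf1r were LOC120103254 and Abcg3l4, and those most like Igfbp2 were Cdipt and Dpp7. Igf1 was most like Phykpl, Tbc1d5 and Tulp2, and Igf2r was most like Ttc21b, Fzr1 and Arf3. Among the other binding proteins, Igfbp3 was most like Clic4, Aamp and Aldh9a1, Igfbp4 most like Tmem26, Inhba and Mcm9, and Igfbp5 most like Erfe, Ssrp1 and Ric8a. Igfbp6 was most like Pigy, Pip4p2 and Smad2, and Igfbp7 most like Sdk2, Fat2 and Aff2. With 6 tumors, between 78 and 310 genes reached r over 0.9 with a given family gene, so a high r was common.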

How the data were processed

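RNA-seq of rat mammary tumors was available as 1 table of gene counts. The authors trimmed reads with Trimmomatic 0.38, aligned them with STAR 2.7.9a (genome build mRatBN7.2), marked duplicates with Picard 2.18.12 and deposited read counts per gene from HTSeq 0.13.5 (tool versions per the submitters' notes), without normalization. The labels name polyA RNA, and the protocol names depletion of ribosomal RNA.

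The counts of 26195 named rows were analysed in R 4.3.3. The 4367 rows without a gene name, 2.17% to 3.64% of counts, were left out. Genes were kept by edgeR 4.0.16's filterByExpr, scaled by TMM and tested with the quasi-likelihood test and Benjamini-Hochberg adjustment over 13139 genes. DESeq2 1.42.0 and limma 3.58.1 were alternatives. Standard errors were calculated back from F. Log2 CPM used a prior count of 2, and ratios added 0.5 to each count. P-values measure the spread among these tumors, each taken as a different animal from its tumor number. The tests were checked on simulated data. Counts of 3 in a library were taken as the floor. Promoter windows are from RefSeq (10 of 10 family genes matched), on another assembly than the counts.

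The family and the gene lists were chosen with earlier results of these data known. Every family gene is named. Listed genes are named where their unadjusted p was under 0.05 or where they are core receptors, substrates, pappalysins or stanniocalcins, and similar genes are those with the highest r and a mean of at least 1 CPM. Neighboring genes, the grouping of markers beside each family gene and the core PI3K genes named were chosen after their values were seen. Some listed genes are not reported here. Exome, genome and single-nucleus data were not used here.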

Additional observations from a re-analysis of the deposited data

How the results depend on the processing

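Of 139 log2 fold changes of family genes under other settings, 133 kept their direction and their side of the threshold. The 3 that newly passed were those of Igf1 (2.22), Igf2 (6.79) and Igf1r (2.16) in DESeq2, and 3 reversed, those of Igfbp6 in limma-voom (-0.52), of Igfbp6 without tumor 102 (-0.70) and of Igfbp4 without tumor 167 (-0.10). With each tumor left out, Igfbp6 ranged from -0.70 to 1.12 and Igfbp4 from -0.10 to 0.88. DESeq2's Wald test passed 326 genes and 3 family genes, against 0 in edgeR. The other settings of edgeR, limma-voom and keeping unnamed rows (14060 tested) passed 0 genes. With each tumor left out in turn, the number of family genes at an unadjusted p under 0.05 ranged from 3 (without tumor 157) to 6 (without tumor 167) around 5, that passed by DESeq2 from 1 (without tumor 102 or 157) to 3, and that whose age groups did not overlap from 4 to 8 (7 without tumor 107, 8 without tumor 167). With fewer tumors non-overlap is more common, and the share of all genes was 21% without tumor 107, 26% without tumor 167 and 17.8% to 27% over the 6 fits. In edgeR, 1129 of all 13139 genes tested had an unadjusted p under 0.05 with all tumors. There were 788 of 13468 without tumor 157 and 1125 of 13587 without tumor 167. The share of all genes that DESeq2 passed with a tumor left out is not given here. The causes were not tested. The leave-one-out fits in DESeq2, the fit with unnamed rows and marker sums without their leading genes were added after seeing the data. The count of family genes at an unadjusted p was planned for the main setting, and its values under other settings were added afterwards. Igfbp6 had no value with at least 10 counts in every tumor. A prior count of 0.5 moved correlations by up to 0.0608. No paired analysis was possible because tumors of the age groups share no replicate numbers. Depth limits Igfbp6, Mmp7 and Igfals, which had tumors at or near 3 counts, and 3 tumors a group limit every p.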

Other observations

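Further genes of the table that lie nearest to family genes in the RefSeq annotation were read for their values. Ins2, on the other side of Igf2 from H19, had 0 counts in all 6 tumors. Parpbp, beside Igf1, overlapped between the age groups (log2 fold change of 0.13 with a standard error of 0.61 in edgeR), as did Synm beside Igf1r (0.06, standard error of 0.36) and Smarcal1 beside Igfbp2 (-0.16, standard error of 0.26). Tns4, beside Igfbp4, was higher in every older tumor, at 235, 122 and 74.0 CPM against 58.6, 63.6 and 27.8 CPM, with an adjusted p of 0.408 in edgeR.

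Genes with patterns like Igf2 included Gpr65, a proton-sensing receptor of leukocytes, at 4.80, 26.3 and 7.58 CPM in older tumors and 2.16 to 2.29 CPM in younger tumors. Dock10, a guanine nucleotide exchange factor, measured 71.0, 225 and 103 CPM in older tumors and 35.0, 30.8 and 39.1 CPM in younger ones. Igfbp4 was most like Tmem26 and Inhba, both with 0 counts in tumor 167.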
